A study of Mus musculus with 25 samples.

Results

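The genes described here are 44 mouse genes of the DNA replication machinery and of the enzymes that supply its nucleotides. They were listed by function. All 44 were annotated on the Illumina bead array, by 85 probes, of which 79 were detected (detection p-value below 0.05) on at least 3 of the 25 arrays. These 79 probes covered 43 of the 44 genes, out of 15533 genes measured in all. The exception was Pola1, the catalytic subunit of DNA polymerase alpha, whose probe was detected on 1 array. A gene with more than 1 kept probe is represented by its brightest on average, and every level below is a log2 value of that probe after background correction and normalization.

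The series measured sorted thymocytes of mice, labelled CD4-CD8-CD3-CD25+ apart from 1 sample, and compared young cells with old cells that had or lacked competitors in the thymus. Old cells with competition (n = 6) had the donor strain B6/Ly5.1 and its CD45.1 allele and were sorted from wild type hosts. Old cells without competition (n = 9) had the donor strain F1(WB x B6/Ly5.1) and were sorted from Rag2-/-γc-/-KitW/Wv hosts, which make no T cells of their own; 1 of these 9 was the sample without a cell type label. Young cells (n = 6) were C57BL/6 host cells with the CD45.2 allele. TN3 cells (CD25+CD44-, n = 2) and TN2 cells (CD25+CD44+, n = 2) of B6/Ly5.1 mice marked the stages through which CD25+ cells pass. Nothing in the labels tells whether a group's samples are separate mice, so each p measures the spread over the samples at hand, which may be technical. Old cells without competition also differed from both other thymus groups in donor strain, in host and in the chips they were run on, and none of these can be told apart from competition.

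Before S phase, the origin recognition complex, Cdc6 and Cdt1 load the MCM helicase onto DNA, and geminin (Gmnn) blocks Cdt1 afterwards. Cdc45 and the GINS complex then turn the helicase on, polymerases alpha, delta and epsilon copy the strands with the help of the PCNA clamp, and the lagging strand's Okazaki fragments are trimmed by Fen1 and joined by Lig1. Ribonucleotide reductase, thymidylate synthase, thymidine kinase and dUTPase keep the deoxynucleotide pool supplied. Many of these genes are E2F targets and are transcribed around the G1/S boundary. In the thymus, TN2 and early TN3 cells divide, and many TN3 cells leave the cycle while they rearrange the T cell receptor beta locus.

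The promoters of members that passed the test in a comparison of old cells are printed below, because these genes carry the calls; Pold2 has 2 windows and is not shown. Each is the RefSeq window of GRCm38.p6 from 250 bases before to 50 bases after the gene's start, 5′ to 3′ on the gene's strand. Tyms is at chr5:30073576-30073875 on the minus strand, Pcna at chr2:132253131-132253430 on the minus strand, Chaf1b at chr16:93883651-93883950 on the plus strand, Mcm6 at chr1:128359656-128359955 on the minus strand and Rrm2 at chr12:24708004-24708303 on the plus strand. Capitals mark matches, on either strand, to the E2F-like heptamers TTCCCGC or TTCGCGC or TTGGCGC or TTGCCGC, or to CCAAT.
Tyms: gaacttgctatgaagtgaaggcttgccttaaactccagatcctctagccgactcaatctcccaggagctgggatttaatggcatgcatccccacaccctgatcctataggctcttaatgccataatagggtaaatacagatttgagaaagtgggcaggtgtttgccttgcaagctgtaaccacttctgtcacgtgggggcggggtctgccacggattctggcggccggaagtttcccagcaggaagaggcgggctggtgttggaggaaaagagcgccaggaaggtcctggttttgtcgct
Pcna: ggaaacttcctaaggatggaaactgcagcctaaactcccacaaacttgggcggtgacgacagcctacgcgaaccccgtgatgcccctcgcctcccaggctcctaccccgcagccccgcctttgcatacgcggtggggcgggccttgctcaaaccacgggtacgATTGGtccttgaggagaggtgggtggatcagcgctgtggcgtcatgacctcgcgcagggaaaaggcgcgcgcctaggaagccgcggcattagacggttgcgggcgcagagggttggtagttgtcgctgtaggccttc
Chaf1b: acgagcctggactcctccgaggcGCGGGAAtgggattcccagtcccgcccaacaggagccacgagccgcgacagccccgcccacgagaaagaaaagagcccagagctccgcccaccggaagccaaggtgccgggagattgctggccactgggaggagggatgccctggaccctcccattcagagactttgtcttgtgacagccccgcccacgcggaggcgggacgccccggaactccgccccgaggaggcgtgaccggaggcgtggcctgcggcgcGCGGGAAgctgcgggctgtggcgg
Mcm6: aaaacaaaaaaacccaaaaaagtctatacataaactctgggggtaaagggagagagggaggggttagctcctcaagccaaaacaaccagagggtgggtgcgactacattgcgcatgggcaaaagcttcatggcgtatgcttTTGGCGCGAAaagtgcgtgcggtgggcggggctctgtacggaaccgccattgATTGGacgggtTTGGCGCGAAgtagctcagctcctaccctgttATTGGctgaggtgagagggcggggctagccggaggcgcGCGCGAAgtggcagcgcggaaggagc
Rrm2: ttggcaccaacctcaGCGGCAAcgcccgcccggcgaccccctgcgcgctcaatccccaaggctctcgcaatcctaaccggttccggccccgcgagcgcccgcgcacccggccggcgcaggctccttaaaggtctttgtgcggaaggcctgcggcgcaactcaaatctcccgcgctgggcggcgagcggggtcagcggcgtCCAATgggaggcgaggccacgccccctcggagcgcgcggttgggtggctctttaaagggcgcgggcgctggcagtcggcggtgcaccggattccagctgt

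The Mcm6 window held 5 E2F-like heptamers, of which overlapping ones share bases, and 2 CCAAT boxes. The Chaf1b window held 2 E2F-like heptamers and Rrm2 held 1 beside 1 CCAAT box. The Pcna window had 1 CCAAT box, and Tyms had neither motif within its 300 bases. Across the members, 36 genes had a window, and 23 of them (63.9%) carried an E2F-like heptamer, against 10.9% of the 27025 genes with a window. CCAAT was also found in 23 of the 36 (63.9%), against 41.1% of genes, and the hexamer TTTGAA in 5 (13.9%), against 20.2% of genes. The table held no window for Gins1, Gins2, Gins4, Gmnn, Mcm4, Pole, Prim2 and Rfc2. These matches describe the letters only, and no binding was measured.

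Total RNA of each sample was hybridised to 1 array, and the arrays were spread over 5 chips. Between 41.1% and 50.1% of the probes were detected per array, and for arrays their number limits the precision. The detected share was 46.8% to 49.4% in old cells with competition and 46.7% to 50.1% in young cells. It was lower in old cells without competition (41.1% to 45.7%), TN3 (43.1% to 44.2%) and TN2 (43.9% to 44.6%), and its part in the differences of dim probes was not tested. Old cells with competition and young cells lay together on chips 2 and 4, old cells without competition on chips 1 and 5, and TN3 and TN2 cells on chips 3 and 5. The stage labels were checked on Cd44, which stood at 4.46 in TN3 against 6.34 in TN2, with 5.08 to 6.37 in young cells, 4.14 to 4.68 in old cells with competition and 4.38 to 4.72 in old cells without, and on Ptcra, the pre-T cell receptor alpha chain, at 6.70 in TN3 against 4.71 in TN2. Il2ra, which encodes CD25, was dim everywhere and was not detected on either TN3 array. Kit, the stem cell factor receptor, averaged 4.62 in old cells with competition and 4.78 in old cells without, against 6.90 in young cells, 5.69 in TN3 and 7.61 in TN2. The mean of young cells lay between TN3 and TN2 for both genes, while the old groups' Cd44 ranges included the TN3 level and their Kit means lay below it. Array 6 of old cells with competition stood apart: 1617 genes deviated there by more than 1 log2 unit from their group's mean, against 31 to 78 on arrays 1 to 5 of this group and up to 532 on the rest. Cd4, which the label says these cells lack, was 8.86 there against 4.55 to 5.31 on arrays 1 to 5, Kit and Il2ra were not detected, and whether this sample was sorted as labelled is not known. The counts of members called are therefore given with and without it in every comparison, while some other values are given in 1 of these settings only. The Cd44 range and Kit mean of old cells with competition above include it.

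The members were broadly active in every group. Of the 43 members, 37 were detected on all 25 arrays; Pcna was detected on 16, Pole2 on 21, Orc1, Pole and Prim1 on 23 and Orc2 on 24. Averaged over the 43 members, the log2 level of an array was 7.46 ± 0.57 (SD, n = 6) in old cells with competition, 7.56 ± 0.09 (n = 9) in old cells without competition, 7.50 ± 0.07 (n = 6) in young cells, 7.18 ± 0.03 (n = 2) in TN3 and 7.48 ± 0.02 (n = 2) in TN2. Without array 6, old cells with competition averaged 7.69 ± 0.05 (n = 5). Those 5 arrays ran from 7.62 to 7.73, all above the 6 young arrays, which ran from 7.39 to 7.61, whereas the 9 arrays of old cells without competition, from 7.40 to 7.71, overlapped both. The TN3 arrays, at 7.20 and 7.17, were the lowest apart from array 6. In bulk RNA, a smaller share of cells that express a gene and less RNA per expressing cell cannot be told apart.

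**Figure D1:**
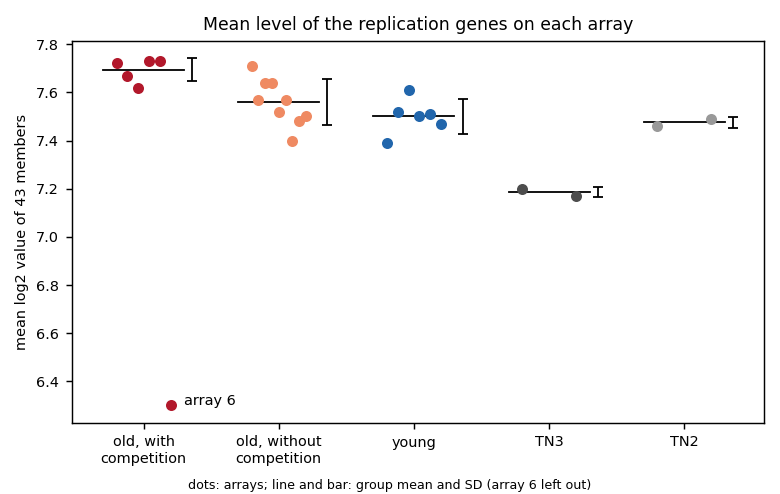
Mean log2 value of the 43 measured members (vertical axis) on each of the 25 arrays, by group; the line and bar are the group mean and SD without array 6. Array 6 sits at 6.30, the other arrays of old cells with competition between 7.62 and 7.73, and TN3 at 7.17 and 7.20.

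One member per role, the brightest of each, is described across all groups. Mcm4, a subunit of the MCM helicase, had a lowest, median and highest value of 9.24, 10.60 and 10.76 in old cells with competition, 10.41, 10.52 and 10.83 in old cells without, and 10.31, 10.61 and 10.81 in young cells, against 10.21 and 10.23 in TN3 and 10.53 and 10.59 in TN2. Rrm1, the large subunit of ribonucleotide reductase, had 9.02, 10.22 and 10.39 in old cells with competition, 10.01, 10.17 and 10.40 in old cells without, and 9.93, 10.09 and 10.35 in young cells, against 10.10 and 10.03 in TN3 and 10.14 and 10.27 in TN2. For both genes the groups of old and young cells overlapped, and array 6 was the lowest of all 25 arrays.

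Cdt1, the licensing factor that geminin blocks, had 6.51, 8.03 and 8.14 in old cells with competition, 7.66, 7.87 and 8.36 in old cells without, and 7.75, 7.94 and 8.48 in young cells, against 7.48 and 7.28 in TN3 and 7.96 and 8.13 in TN2. Gins4, a GINS subunit, had 7.06, 8.06 and 8.26 in old cells with competition, 7.99, 8.12 and 8.35 in old cells without, and 7.83, 7.95 and 8.09 in young cells, against 7.54 and 8.12 in TN3 and 8.22 and 8.49 in TN2. Leaving array 6 aside, both TN3 arrays lay below every other array for Cdt1, and for Gins4 only 1 of them did. Pold1, the catalytic subunit of polymerase delta, had 6.70, 8.54 and 8.90 in old cells with competition, 8.03, 8.30 and 8.86 in old cells without, and 8.24, 8.42 and 8.72 in young cells, against 8.02 and 8.16 in TN3 and 8.49 and 8.54 in TN2.

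Rpa1, the large subunit of the single-strand binding protein RPA, was among the members that varied least: it had 9.51, 9.98 and 10.11 in old cells with competition, 9.87, 10.08 and 10.41 in old cells without, and 9.93, 10.05 and 10.21 in young cells, against 9.71 and 10.05 in TN3 and 9.96 and 10.31 in TN2. Lig1, the ligase of Okazaki fragments, had 5.96, 8.30 and 8.42 in old cells with competition, 7.70, 8.12 and 8.54 in old cells without, and 7.81, 8.32 and 9.69 in young cells, against 7.57 and 6.62 in TN3 and 8.27 and 8.01 in TN2. Over arrays of a group, with array 6 left out, the pooled SD of a member had a median of 0.26 log2 units, against 0.27 over all genes. It ran from 0.10 for Rrm2, the small subunit of ribonucleotide reductase, to 0.78 for the loading factor Cdc6. The Cdc6 values come from its brightest probe, with which its other kept probes correlated at 0.35, 0.24 and 0.13 over the 25 arrays.

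**Figure D2:**
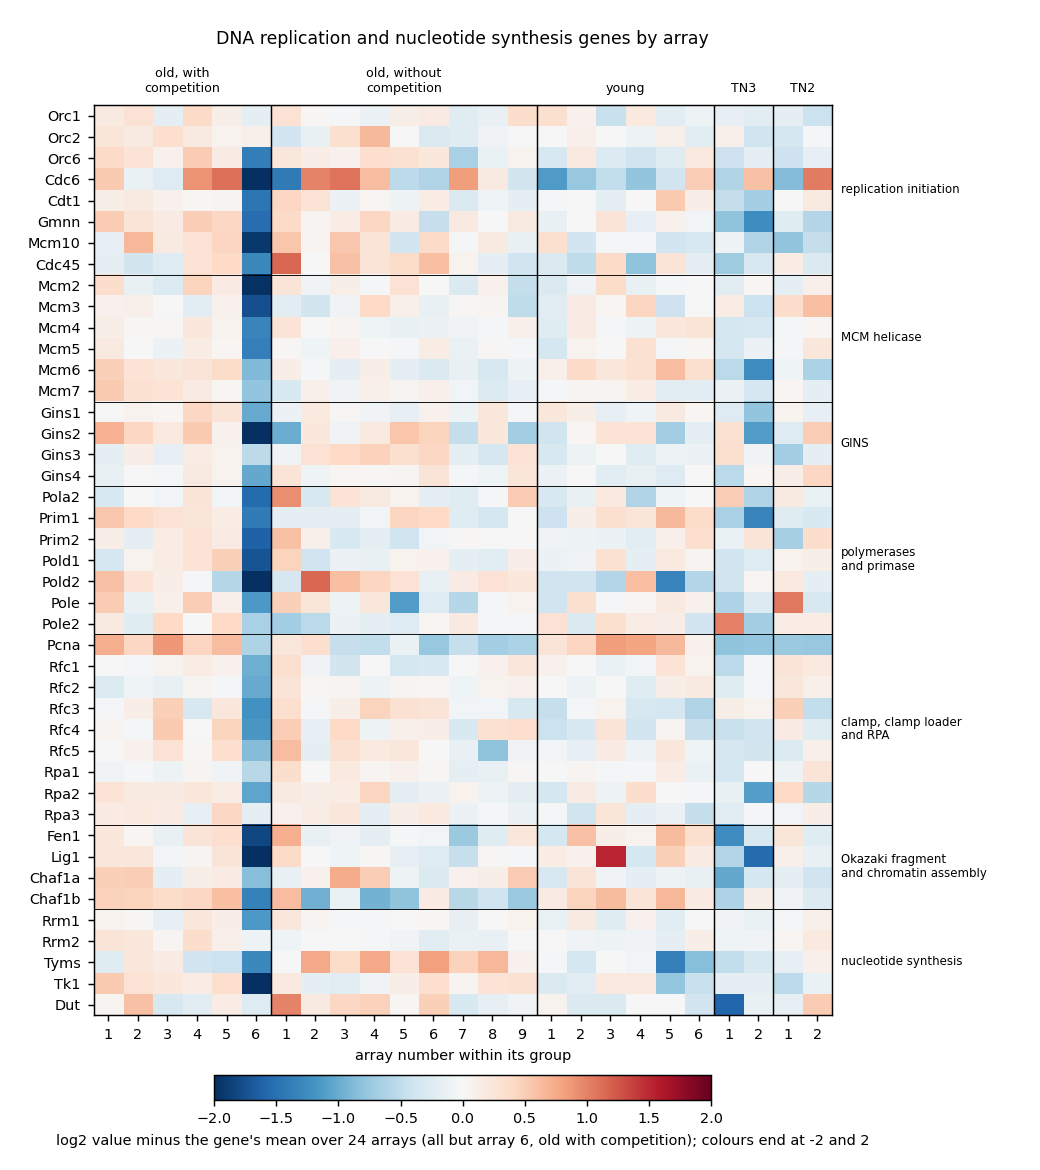
Each of the 43 members (rows, by role) on each array (columns, by group), as its log2 value minus the gene's mean over all arrays but array 6 of old cells with competition; colours end at -2 and 2. The column of array 6 is low in nearly every row, and the 2 TN3 columns are low in many.

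On array 6 nearly the whole machinery was low. Of the 43 members, 40 (93%) lay below the lowest of the group's other 5 arrays, against 30.2% of all genes, and the median member stood 1.31 log2 units below the mean of those arrays (median difference -1.31; all genes -0.03). The lowest relative to the other 5 arrays were Gins2, a GINS subunit, at 4.40 on array 6 against 7.47 ± 0.25 (SD, n = 5), Tk1, thymidine kinase, at 5.56 against 8.50 ± 0.14, and Pold2, an accessory subunit of polymerase delta, at 4.53 against 7.22 ± 0.43. Cdc6 stood at 4.30 against 6.97 ± 0.61 and Lig1 at 5.96 against 8.30 ± 0.14. These differences describe 1 array that was singled out for its values, so they carry no test.

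All roles took part. On array 6 the median difference from the other 5 arrays was -1.61 for the 8 initiation genes, of which 6 lay below the others' range, -1.41 for the MCM genes (6 of 6), -1.10 for GINS (4 of 4), -1.72 for polymerases and primase (7 of 7), -1.03 for clamp, clamp loader and RPA (9 of 9), -1.88 for Okazaki fragment processing and chromatin assembly (4 of 4) and -1.15 for nucleotide synthesis (4 of 5). Inside the range of the other arrays were Orc1 and Orc2, subunits of the origin recognition complex, and Dut, the dUTPase. Of the members below that range, Rrm2 (-0.30), Rpa3, the small RPA subunit (-0.34), and Rpa1 (-0.50) differed least from the mean of the other arrays. Pcna, Prim1, which encodes the catalytic primase subunit, and Pole and Pole2 of polymerase epsilon were not detected on array 6. Second probes did not all follow: those of Rpa2 (7.63 on array 6 against a mean of 6.89), Rfc5 (4.95 against 4.83) and Rrm1 (6.21 against 6.15) included 1 each that was not lower.

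Other transcripts of array 6 differed too. Markers of CD4 CD8 double-positive thymocytes, of which 5 of 8 were measured, summed to 1915 linear units there against 654.3 to 818.5 on the other 5 arrays, with Cd4 high as above and the transcription factor gene Ikzf3 at 9.74 against 7.23 to 8.18; Cd8b1 went the other way, at 6.54 against 7.57 to 7.97. Rag1, the recombinase gene, stood at 11.13 against 9.48 to 9.89, and Kit and Il2ra were not detected. Of the other cell types listed, the summed erythroid markers stood at 108.9 on array 6 against 91.94 to 197.9, and the myeloid and dendritic ones at 299.8 against 237.5 to 282.4. The B cell markers (60.15 against 73.08 to 126.7), the NK cell markers (63.53 against 74.19 to 162.7) and the thymic stroma markers (66.54 against 96.08 to 113.3) lay below the other 5 arrays. The NK sum held Nkg7, Klrb1c and Klrd1, and no gamma-delta T cell gene of that list was measured. The part of these cells in the low replication genes was not tested.

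**Figure D3:**
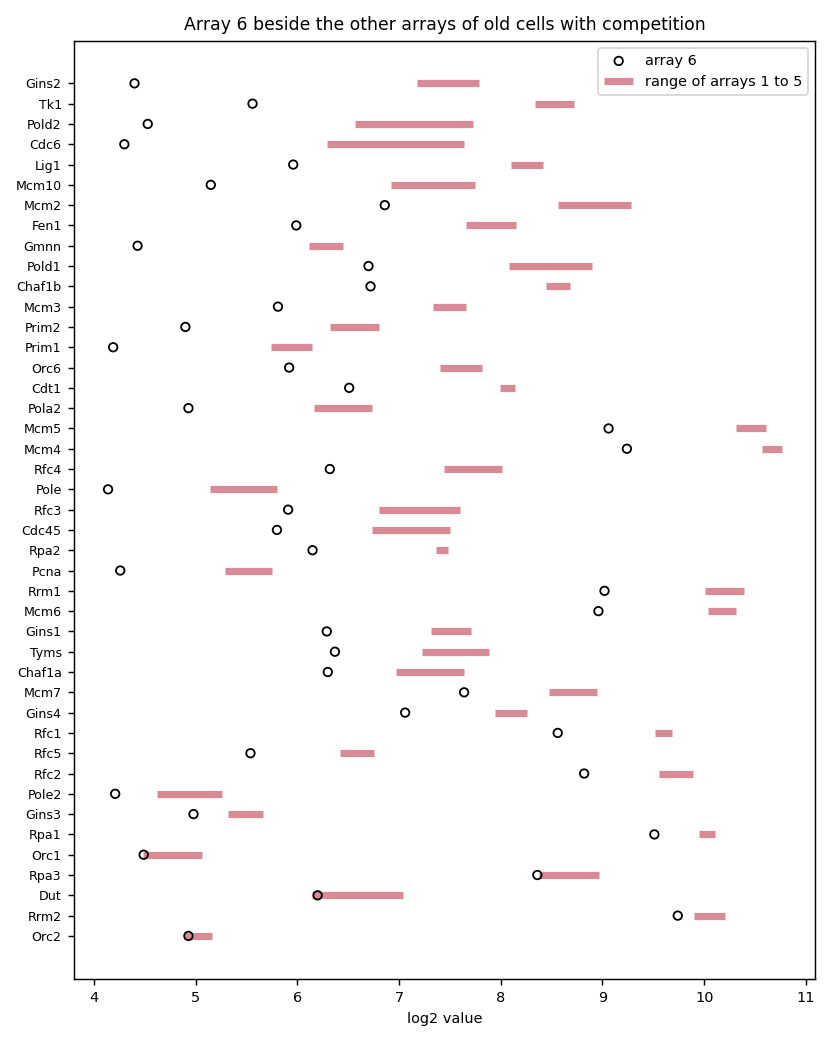
Log2 value (horizontal axis) of each of the 43 members on array 6 of old cells with competition (open circles), beside the range of the group's arrays 1 to 5 (bars). Circles lie left of the bars for 40 members; Orc1, Orc2 and Dut lie within them.

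Old cells with competition were compared with young cells to see whether the long-lived donor cells kept the replication programme of their young competitors. No member passed the limma test (adjusted p below 0.05) in either direction, with array 6 or without it, against 2.92% of all genes called with all arrays and 4.14% without array 6. With all arrays, 17 of 43 members (39.5%) had a difference above 0 and the median was -0.04, against 51.2% and 0.00 for all genes. Without array 6, 38 of 43 (88.4%) did and the median was 0.15, against 51.1% and 0.00. On the scale with a common median, the median member was 0.00 with all arrays (22 of 43 above 0) and 0.24 without array 6 (42 of 43), and with no background subtracted it was -0.01 (20 of 43) and 0.08 (38 of 43). With all arrays its sign thus depended on the scaling. The unadjusted p was below 0.05 for 2 members with all arrays (4.65%, Rpa3 and Rrm2; all genes 11.6%) and for 10 without array 6 (23.3%; all genes 14.8%), and all of these were higher in old cells with competition (higher at that p, all genes 4.11% with all arrays and 6.94% without array 6).

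Those 10 were spread over the roles: the initiation genes Cdc6, Gmnn, Mcm10 and Orc6, the helicase gene Mcm7, the clamp loader genes Rfc3 and Rfc4, Rpa3, and the nucleotide genes Rrm2 and Tk1. Tk1, which salvages thymidine, had 8.72, 8.48, 8.41, 8.34 and 8.54 on arrays 1 to 5 of old cells with competition and 5.56 on array 6, against 7.42, 7.95 and 8.40 (lowest, median and highest) in young cells. Its difference without array 6 was 0.52 ± 0.15 (log2 ± SE, adjusted p = 0.054), and 4 of the 5 arrays lay above every young array. Rrm2 had 10.11, 10.07, 9.90, 10.20 and 9.95 on arrays 1 to 5 and 9.74 on array 6, against 9.65, 9.78 and 9.98 in young cells. Its difference was 0.25 ± 0.08 without array 6 (adjusted p = 0.0686), with the groups overlapping at 2 arrays. Both genes passed without array 6 when no background was subtracted and in the deposited log2 table. A second Tk1 probe gave 0.37 (adjusted p = 0.185) and a second Rrm2 probe 0.28 (adjusted p = 0.122) without array 6.

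Gmnn (0.37, adjusted p = 0.137), Orc6 (0.43, adjusted p = 0.14) and Mcm7 (0.29, adjusted p = 0.144) came next, all without array 6. By role, without array 6, the median difference was 0.30 for initiation, 0.25 for nucleotide synthesis, 0.15 for clamp, clamp loader and RPA, 0.14 for GINS, 0.12 for polymerases and primase, 0.04 for the MCM genes and -0.01 for Okazaki fragment processing and chromatin assembly. Within chip 4, which does not hold array 6, 32 of 43 members (74.4%) were above 0 with a median of 0.09, against 51% and 0.00 of all genes. Within chip 2, 36 of 43 (83.7%) were above 0 with a median of 0.25 without array 6, and 9 of 43 with a median of -0.20 with it. Stage markers moved with this comparison: without array 6, Cd44 (-1.22, adjusted p = 6.65e-05) and Kit (-2.17, adjusted p = 2.21e-05) fell in old cells with competition. Markers of other cells moved as well: the myeloid and dendritic markers, 9 of 10 measured, summed to 237.5 to 299.8 in old cells with competition against 440.5 to 775.2 in young cells, and the erythroid ones, 5 of 6 measured, to 91.94 to 197.9 against 255.9 to 998.8. The NK cell markers, 3 measured of a list of 7 NK and gamma-delta genes, summed to 74.19 to 162.7 on arrays 1 to 5 of old cells with competition. In young cells they summed to 230.9 to 357.2. Of the 3, Nkg7 ran from 5.05 to 6.88 on those arrays and from 7.50 to 8.25 in young cells, and Klrb1c and Klrd1 were dim in both. The double-positive thymocyte markers summed to 654.3 to 818.5 on arrays 1 to 5 against 587.7 to 652.8 in young cells, and Ikzf3 was the 1 of 5 that rose (2.69 without array 6, adjusted p = 3.78e-06). Itgax was not detected in old cells with competition nor Alas2 in young cells, and the part of stage or of such cells in these differences was not tested.

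The counterpart in hosts without competitors set old cells without competition against young cells. With all arrays, 1 member rose (2.33%; all genes called higher 3.17%) and 1 fell (2.33%; all genes called lower 5.76%). Tyms, thymidylate synthase, rose by 0.91 ± 0.22 (log2 ± SE, adjusted p = 0.00964), and Pcna, the sliding clamp of the polymerases, fell by 0.85 ± 0.20 (difference -0.85, adjusted p = 0.00808). Leaving out array 6, which enters here through the shared estimate of the spread alone, added Pold2 (0.74 ± 0.24, adjusted p = 0.0391), Chaf1b, a subunit of chromatin assembly factor 1 (-0.81 ± 0.20, adjusted p = 0.00783), and Mcm6 (-0.44 ± 0.11, adjusted p = 0.00964), so that 5 members (11.6%) passed, against 12.7% of all genes. With all arrays the adjusted p was 0.228 for Pold2, 0.0604 for Chaf1b and 0.0983 for Mcm6. These shares lie near or below the background, and the median member differed by 0.03 (all genes 0.02) with 25 of 43 (58.1%; all genes 54.8%) above 0.

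Tyms (probe ILMN_2484707) had 7.67, 8.12 and 8.47 in old cells without competition, against 6.29, 7.45 and 7.67 in young cells. The lowest array of old cells without competition and the highest young array both stood at 7.67, and the other 8 arrays of old cells without competition lay above them. A second Tyms probe passed as well (0.95 ± 0.29, adjusted p = 0.0451), while the others gave 0.82 (adjusted p = 0.131), 0.30 (adjusted p = 0.436) and -0.04 (adjusted p = 0.86), the last from a probe detected on 9 arrays. Pcna (probe ILMN_2762026, its only one) had 4.12, 4.41 and 5.22 in old cells without competition, against 4.97, 5.41 and 5.71 in young cells. It was detected on 5 of 9 arrays of old cells without competition and on all young arrays, and 7 of the 9 lay below every young array. With no background subtracted, which shrinks the differences of dim probes, Pcna gave -0.26 (adjusted p = 0.0101). Scaling the arrays to a common median instead of quantile normalization put the median of all genes at -0.17 in this comparison, where the quantile scale had 0.02, took Tyms to 0.36 (adjusted p = 0.342), kept Pcna lower at -1.11 (adjusted p = 0.000474), turned the median member to -0.42 and gave 113 genes higher and 3824 lower, where the quantile scale gave 493 and 894.

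Chaf1b (probe ILMN_2664686) had 7.11, 7.52 and 8.70 in old cells without competition, against 8.24, 8.43 and 8.75 in young cells. Arrays 1 and 6 of old cells without competition, at 8.70 and 8.25, lay within the young range and the other 7 below it. Mcm6 (probe ILMN_1217331), a helicase subunit, had 9.51, 9.69 and 9.97 in old cells without competition, against 9.94, 10.15 and 10.45 in young cells, and 7 of the 9 arrays lay below every young array. The other 3 Mcm6 probes gave -0.10 (adjusted p = 0.71), -0.15 (adjusted p = 0.519) and 0.00 (adjusted p = 0.993) without array 6, so its call rests on 1 probe. Probe sequences were not used here, and whether the strains differ in sequence under this probe was not tested. Pold2 (probe ILMN_2817892) had 6.80, 7.43 and 8.29 in old cells without competition, against 5.80, 6.65 and 7.74 in young cells, with the groups overlapping widely. Cd44 (-1.13, adjusted p = 8.38e-06) and Kit (-2.12, adjusted p = 2.39e-06) fell in old cells without competition, and Ptcra rose (1.07, adjusted p = 0.0037). Erythroid markers summed to 99 to 345.6 in old cells without competition against 255.9 to 998.8 in young cells, with 2 of the 5 measured called lower. Myeloid and dendritic markers summed to 215.2 to 320 in old cells without competition against 440.5 to 775.2 in young cells, and the measured NK cell markers to 69 to 254.2 against 230.9 to 357.2. The double-positive thymocyte markers summed to 547.2 to 732.1 in old cells without competition against 587.7 to 652.8 in young cells, and Ikzf3 alone among the 5 rose (2.14, adjusted p = 9.65e-05). Mpo was not detected in old cells without competition, and the part of stage or of such cells was not tested.

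**Figure D4:**
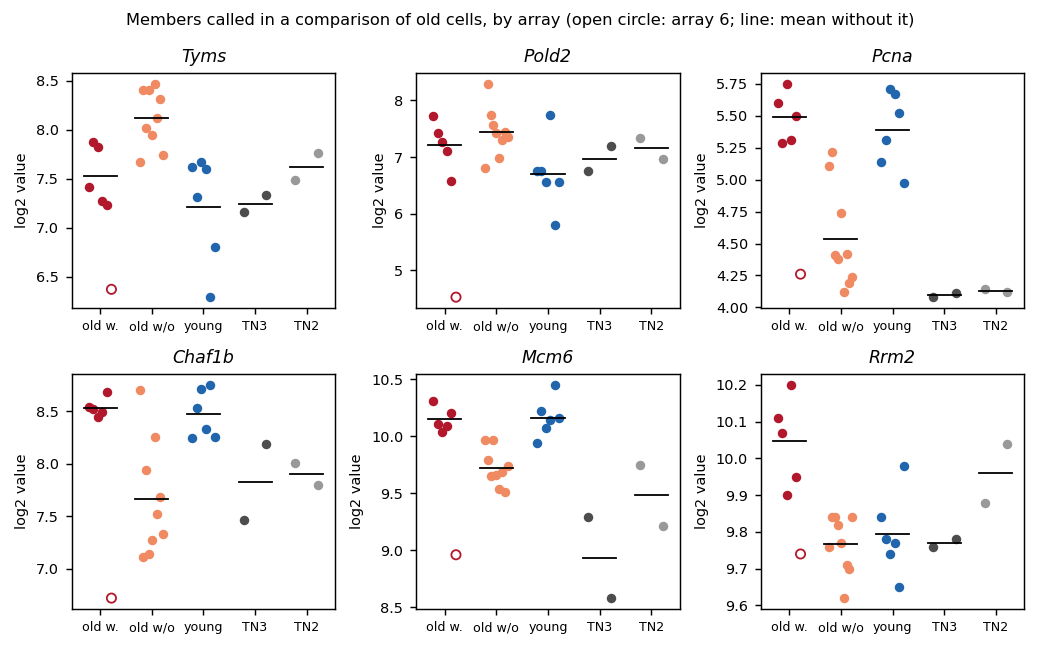
Log2 values of Tyms, Pold2, Pcna, Chaf1b, Mcm6 and Rrm2 on every array, by group; open circles are array 6 of old cells with competition and lines are means without it. Tyms is high and Pcna low in old cells without competition, and Pcna lies between 4.08 and 4.14 in TN3 and TN2.

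The 2 groups of old cells were then set against each other, to see whether the absence of competitors went with a different replication programme. With all arrays no member passed (all genes 1.24%), and the unadjusted p was below 0.05 for 5 members (11.6%; all genes 13.1%), namely Chaf1b, Pcna, Rfc2, Rrm2 and Tyms. Without array 6, 3 members fell in old cells without competition (6.98%; all genes called lower 1.49%) and none rose (all genes 0.682%). Pcna fell by 0.95 (difference -0.95 ± 0.17, adjusted p = 0.00315), Chaf1b by 0.87 (-0.87 ± 0.21, adjusted p = 0.0262) and Rrm2 by 0.28 (-0.28 ± 0.07, adjusted p = 0.0363). The direction of the median member turned with this array: it was 0.14 with all arrays and -0.13 without array 6, against 0.02 for all genes in both, and 32 (74.4%) and 10 (23.3%) of the 43 members were above 0, against 55% and 54% of all genes.

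Pcna had 4.12, 4.41 and 5.22 in old cells without competition, against 5.60, 5.29, 5.75, 5.31 and 5.50 on arrays 1 to 5 of old cells with competition and 4.26 on array 6, where it was not detected. Rrm2 had 9.62, 9.77 and 9.84 in old cells without competition, against 10.11, 10.07, 9.90, 10.20 and 9.95 on arrays 1 to 5 of old cells with competition. For both genes every array of old cells without competition lay below arrays 1 to 5, as it did for Mcm6, which had 9.51, 9.69 and 9.97 against 10.31, 10.11, 10.04, 10.09 and 10.20 (difference -0.43, adjusted p = 0.0589). These were 3 of 43 members without overlap (6.98%), against 1.11% of all genes. Chaf1b had 7.11, 7.52 and 8.70 in old cells without competition, against 8.54, 8.52, 8.44, 8.49 and 8.68 on arrays 1 to 5 of old cells with competition, so that array 1 of old cells without competition was the only one of 9 to reach them. The stage marker Rag1, of the recombinase, fell in old cells without competition as well (-0.83, adjusted p = 0.0315; -0.57, adjusted p = 0.0128 without array 6), and its part was not tested. A second Rrm2 probe was lower with all arrays as well (-0.40 ± 0.08, adjusted p = 0.0157), and the remaining one, detected on 5 arrays, gave 0.06 (adjusted p = 0.825). The 2 old groups shared no chip, so chip and group cannot be told apart. Scaling to a common median put the median of all genes at -0.20 (-0.25 once array 6 was left out), compared with 0.02 on the quantile scale. With all arrays it gave 7 members lower and a median member of -0.41. Over all genes it then gave 43 higher and 3374 lower, where the quantile scale gave 64 and 129. Without array 6 it gave 37 members lower, none higher and a median member of -0.75, with 5534 of the 15533 genes called in either direction.

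TN3 cells were compared with TN2 cells for the stage difference on the same arrays. No member passed, with array 6 or without it, against 1.17% and 1.92% of all genes, in a test with 2 arrays a group. The members nevertheless lay mostly on 1 side: 35 of 43 were lower in TN3 and 8 (18.6%) higher, against 50.1% of all genes higher, and the median member differed by -0.28 (all genes 0.00). Both TN3 arrays lay below both TN2 arrays for 20 members (46.5%; all genes 18.8%) and above them for 1 (2.33%; all genes 18.5%), Gins3, a GINS subunit. The 20 include Pcna, which was not detected on any TN3 or TN2 array, so its order there is one of background values. The unadjusted p was below 0.05 for 2 members with all arrays (Dut and Gins3; 4.65%, all genes 10.9%) and for 14 without array 6 (32.6%, all genes 12.9%), of which 13 were lower in TN3 (all genes 7.04%).

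The largest differences were those of Lig1, Dut, Pole and Fen1. Lig1 had 7.57 and 6.62 in TN3, against 8.27 and 8.01 in TN2 (-1.05 ± 0.58, adjusted p = 0.542). Dut, which removes dUTP, had 4.87 and 6.31 in TN3, against 6.29 and 6.96 in TN2 (-1.03 ± 0.39, adjusted p = 0.283). Here 1 TN3 array overlapped TN2, but on each shared chip the TN3 array was the lower one. Fen1, the flap endonuclease, had 6.57 and 7.49 in TN3, against 8.05 and 7.57 in TN2 (-0.78 ± 0.51, adjusted p = 0.633). For these 3 genes the 2 TN3 arrays differed from each other by nearly as much as the stage difference or by more.

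Of the 6 helicase genes, Mcm3, Mcm4 and Mcm5 differed without overlap, while the TN3 and TN2 arrays overlapped for Mcm2, Mcm6 and Mcm7. That overlap arose across chips: within chip 3 and within chip 5, TN3 lay below TN2 for all 6 genes. Mcm6, for example, had 9.29 in TN3 against 9.75 in TN2 on chip 5 and 8.58 against 9.21 on chip 3. Mcm3 had 7.71 and 7.13 in TN3, against 7.92 and 8.16 in TN2, and Mcm5 had 10.07 and 10.31, against 10.40 and 10.65. Cdt1 differed by -0.66 ± 0.35 (adjusted p = 0.531; 0.116 without array 6). By role the median was -0.59 for Okazaki fragment processing and chromatin assembly, -0.50 for GINS, -0.34 for the MCM genes, -0.26 for clamp, clamp loader and RPA, -0.19 for nucleotide synthesis, -0.18 for polymerases and primase and -0.05 for initiation. Each of the chips 3 and 5 held 1 array of both stages. On chip 3, 36 of 43 members were lower in TN3 (83.7%; all genes 49.7%) with a median of -0.26, and on chip 5, 32 of 43 (74.4%; all genes 50.4%) with a median of -0.33. Scaling to a common median gave a median member of -0.54 and 17 genes higher and 68 lower, where the quantile scale gave 59 and 122. Erythroid markers summed to 122.7 to 124.1 in TN3 and 1158 to 1472 in TN2, and myeloid and dendritic ones to 299.9 to 370.3 and 416.1 to 626.1, with Mpo and Itgax not detected in TN3; their part was not tested.

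Each group of CD25+ thymocytes was last set against TN3. The 3 comparisons share the 2 TN3 arrays, so a low or high value there enters all of them, and they are given side by side only. Old cells with competition and young cells shared no chip with TN3, so in their comparisons chip and group cannot be told apart. Old cells without competition shared chip 5 with TN3 but lay on chip 1 as well. They also differed from TN3 cells in strain and host, which cannot be told apart from group. With all arrays, 2 members rose in old cells with competition (4.65%; all genes called higher 2.3%), none in old cells without competition (all genes called higher 1.11%) and 2 in young cells (4.65%; all genes called higher 2.49%). They were Mcm6 and Pcna in old cells with competition and Mcm6 and Pcna in young cells. The unadjusted p was below 0.05 for 11 members in old cells without competition (25.6%; all genes 15%). Without array 6, 10 members rose in old cells with competition (23.3%; 4.79% of genes), 7 in old cells without (16.3%; 2.76% of genes) and 8 in young cells (18.6%; 3.91% of genes). None fell, where 2.88%, 2.16% and 2.13% of all genes did in these 3 groups.

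Pcna was not detected on either TN3 array (4.08 and 4.11), nor in TN2, so its fold over TN3 can at best be bounded. Its level also went with the chips. Leaving array 6 aside, it lay between 4.97 and 5.75 on chips 2 and 4 and between 4.08 and 5.22 on chips 1, 3 and 5. The part of the chips, and how well its only probe tracks the gene, were not tested. In young cells (mean 5.39 against 4.09), where every array detected it, Pcna was at least 2.15-fold higher. The same step gave 2.01-fold in old cells with competition, array 6 included (5.28), and 1.19-fold in old cells without competition (4.54). Pcna was detected on only 5 of 6 and 5 of 9 arrays of these groups, so these 2 folds are no bounds. Each fold sets the group's mean against the lowest detected signal of the TN3 arrays. The limma fit's adjusted p with all arrays was 0.0315 in old cells with competition and 0.0183 in young cells. Mcm6 had 9.29 and 8.58 in TN3, against which old cells with competition stood 1.02 ± 0.25 higher (adjusted p = 0.0236) and young cells 1.23 higher (adjusted p = 0.00666). Without TN3 array 2, the lower one, Mcm6 gave 0.66 (adjusted p = 0.475) in old cells with competition and 0.87 (adjusted p = 0.234) in young cells, and the mean of all 4 probes gave 0.57 (adjusted p = 0.396) and 0.73 (adjusted p = 0.238). Pcna also missed the threshold when either TN3 array was left out, in both groups, and in old cells with competition when array 1, 3, 4 or 5 of that group was left out (adjusted p = 0.0532 to 0.059).

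Without array 6, Gmnn, the inhibitor of relicensing, rose by 1.38 in old cells with competition (adjusted p = 0.000206), by 1.13 in old cells without (adjusted p = 0.000557) and by 1.01 in young cells (adjusted p = 0.00145). Prim1 rose by 1.31 in old cells with competition (adjusted p = 0.00143), by 0.95 in old cells without (adjusted p = 0.0145) and by 1.20 in young cells (adjusted p = 0.00271). It was detected on only 1 of the 2 TN3 arrays, so these differences rest in part on a background value. Cdt1 rose by 0.67 in old cells with competition (adjusted p = 0.0192), by 0.58 in old cells without (adjusted p = 0.0378) and by 0.64 in young cells (adjusted p = 0.0251). The GINS subunit gene Gins1 rose by 0.68 in old cells with competition (adjusted p = 0.00689), by 0.53 in old cells without (adjusted p = 0.0304) and by 0.58 in young cells (adjusted p = 0.021). Gmnn had 5.15 and 4.71 in TN3, against 6.45, 6.21, 6.12, 6.44 and 6.36 on arrays 1 to 5 of old cells with competition, with no overlap.

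These calls rest on 2 TN3 arrays, and leaving out 1 of them as well as array 6 ended many. Gmnn, Mcm6 and Pcna in old cells with competition, Gmnn in old cells without and Mcm6 and Pcna in young cells passed whichever TN3 array was left out. Without TN3 array 2, Prim1 gave 0.96 (adjusted p = 0.0977), 0.59 (adjusted p = 0.389) and 0.85 (adjusted p = 0.146) in old cells with competition, old cells without and young cells, Gins1 gave 0.42, 0.27 and 0.31, and Cdt1 0.57, 0.49 and 0.54, none of which passed. Gmnn in young cells gave 0.79 (adjusted p = 0.077) there, and Mcm6 in old cells without competition 0.43 (adjusted p = 0.35). Without TN3 array 1, Cdt1 also missed the threshold in old cells without competition (adjusted p = 0.0842) and young cells (adjusted p = 0.0601).

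Others passed in some groups only, which is no test of a difference between groups. Lig1 passed in old cells with competition (1.21, adjusted p = 0.021) and young cells (1.41, adjusted p = 0.00743), Chaf1a, the large subunit of chromatin assembly factor 1, in old cells with competition (0.91, adjusted p = 0.0236) and without (0.85, adjusted p = 0.0302), Fen1 in young cells (1.01, adjusted p = 0.0388) and Dut in old cells without competition (1.09, adjusted p = 0.0407). Mcm7 (0.48, adjusted p = 0.0467) and Rpa2, the middle RPA subunit (0.83, adjusted p = 0.0304), passed in old cells with competition. Without TN3 array 2, Lig1 gave 0.74 in old cells with competition and 0.94 in young cells, Rpa2 0.35 and Mcm7 0.36. Without TN3 array 1, Dut gave 0.36 (1.81 without TN3 array 2), Fen1 0.55, and Chaf1a 0.57 in old cells with competition and 0.51 in old cells without. None of these passed, except Dut at 1.81 (adjusted p = 0.0079). The median member, without array 6, was 0.46 in old cells with competition, 0.32 in old cells without and 0.21 in young cells, against medians of 0.00, 0.02 and 0.00 for all genes. Without overlap with TN3, 20 members were higher in old cells with competition (46.5%; all genes 13.6%), 11 in old cells without (25.6%; all genes 5.79%) and 12 in young cells (27.9%; all genes 10.6%), and Rfc3 was lower in young cells (2.33%; all genes 8.74%). The 11 include Pcna, which was detected on only 5 of 9 arrays of old cells without competition and on no TN3 array. With array 6 kept and TN3 array 2 left out, few or no members passed in any of the 3 groups, and fewer of all genes passed than with both TN3 arrays. Gmnn then gave 0.85, 0.91 and 0.79 in old cells with competition, old cells without and young cells, and Gins1 gave 0.22, 0.27 and 0.31. On the scale with a common median, on which all genes lay 0.23 higher in old cells with competition, 0.06 in old cells without and 0.25 in young cells at the median, old cells with competition had 2867 genes higher and 103 lower (358 and 229 on the quantile scale), with 44 and 24 in old cells without (173 and 193) and 3018 and 104 in young cells (386 and 184). Markers moved as well: myeloid and dendritic ones summed to 237.5 to 299.8 in old cells with competition, to between 215.2 and 320 in old cells without and 440.5 to 775.2 in young cells, against 299.9 to 370.3 in TN3, and erythroid ones to 91.94 to 197.9, 99 to 345.6 and 255.9 to 998.8 in these groups, against 122.7 to 124.1 in TN3. The measured NK cell markers summed to 63.53 to 162.7, 69 to 254.2 and 230.9 to 357.2, against 124.6 to 173.4 in TN3, and Cd44 in young cells lay above both TN3 arrays. Their part was not tested.

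**Figure D5:**
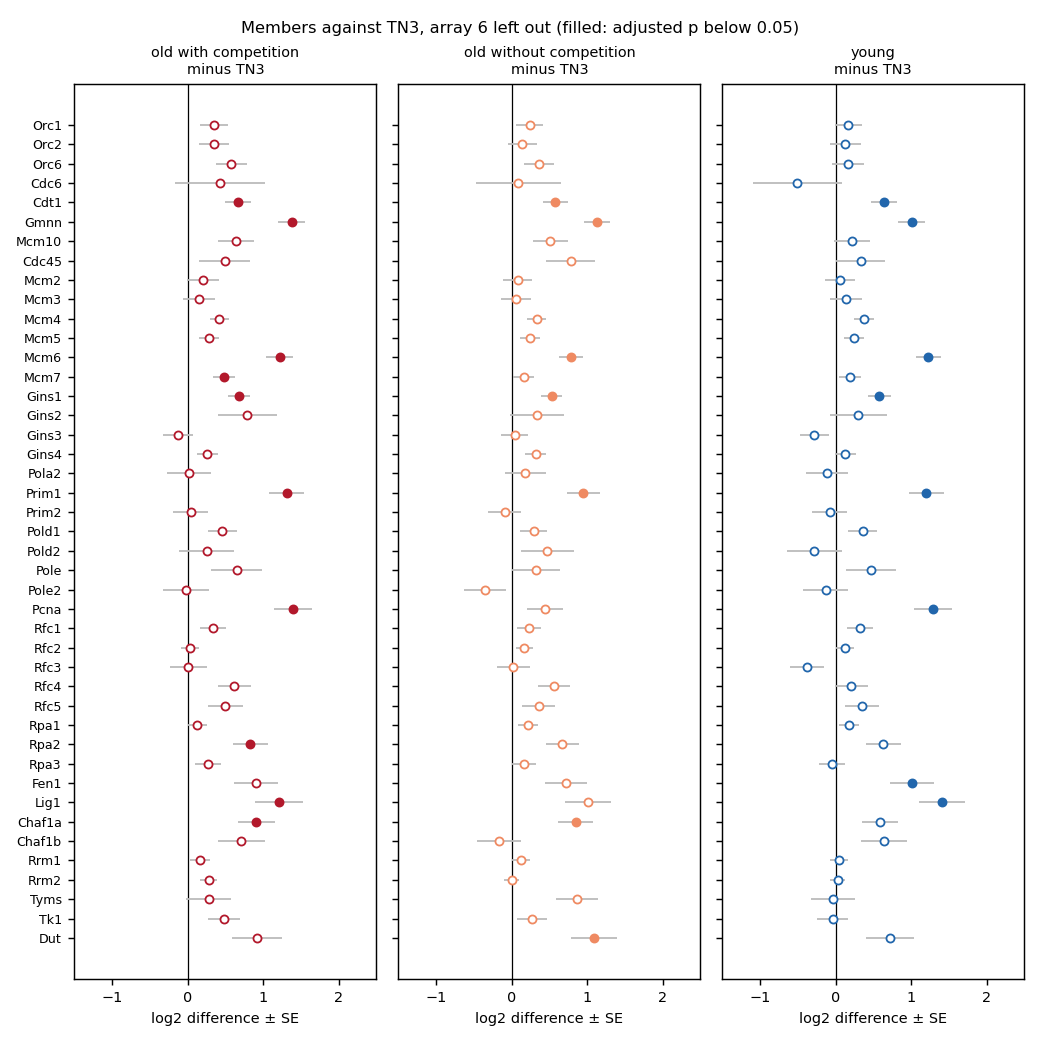
Log2 difference from TN3 (horizontal axis, ± SE) of each of the 43 members, with array 6 left out, in old cells with competition, old cells without competition and young cells; filled points have an adjusted p below 0.05. Filled points number 10, 7 and 8, all right of 0.

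Genes of the surrounding pathways, listed by function, were counted in the same fits. Old cells with competition showed no called gene against young cells in any of 5 such lists with all arrays. Without array 6, when 1.46% of all genes were called higher, 5 of 33 other nucleotide synthesis genes rose, led by Cad, which starts pyrimidine synthesis (0.84, adjusted p = 0.00193), and Gmps, which makes GMP (0.64, adjusted p = 0.00347), followed by Shmt1 (0.56, adjusted p = 0.0103) and Mthfd1 (0.65, adjusted p = 0.0199) of one-carbon metabolism, and none fell. In the same comparison 1 of 30 other replication factors rose, the helicase gene Recql4 (1.02, adjusted p = 0.00634), 1 of 21 E2F, RB and G1/S genes, Cdc25a (0.76, adjusted p = 0.00812), and 2 of 20 mitosis genes, Birc5 (0.41, adjusted p = 0.0191) and Plk1 (0.50, adjusted p = 0.0222). None of the 12 replication checkpoint genes passed.

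In old cells without competition, 5 of 30 other replication factors rose against young cells with all arrays (all genes called higher 3.17%): the topoisomerase gene Top1 (0.82, adjusted p = 0.000831), Recql4 (1.47, adjusted p = 0.00103), Rnaseh2c of RNase H2 (1.02, adjusted p = 0.00236), Chtf8 of an alternative clamp loader (0.91, adjusted p = 0.00349) and the histone chaperone gene Asf1b (0.55, adjusted p = 0.0324). Of the 33 other nucleotide synthesis genes, Atic of purine synthesis (1.18, adjusted p = 0.0124) and Impdh1 of guanine nucleotide synthesis (0.55, adjusted p = 0.0103) rose, and Dck, deoxycytidine kinase, fell by 0.67 (-0.67, adjusted p = 0.00818). Without array 6, 14 of these 33 rose (all genes called higher 5.31%) and 2 fell (all genes called lower 7.38%). Cdk2, a kinase of S phase entry, fell by 0.43 (-0.43, adjusted p = 0.0259) and was the 1 called gene of the E2F, RB and G1/S list with all arrays. Between the 2 old groups, with all arrays, Rnaseh2c rose (0.85, adjusted p = 0.0381; all genes called higher 0.412%) and Kif20a, a kinesin of cytokinesis, fell by 0.65 (-0.65, adjusted p = 0.0117; all genes called lower 0.83%) in old cells without competition, and no other gene of the 5 lists passed. Without array 6, Rnaseh2c no longer passed (0.70, adjusted p = 0.0703) and Kif20a did (-0.63, adjusted p = 0.0181). In TN3 against TN2, 19 of 20 mitosis genes were lower with a median of -0.50, of which the centromere histone gene Cenpa passed (-0.96, adjusted p = 0.0386; all genes called lower 0.785%).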

How the data were processed

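The samples were sorted thymocytes whose RNA was prepared with RNAzol B and labelled with biotin by the Ambion MessageAmp kit, per the labels' protocols. The deposited table gave, per the file headers, 1 intensity for each of 46237 probes on each array and a detection p-value beside it. These intensities were linear, uncorrected for background and unscaled, judging by array medians of 86 to 104. A second deposited table held log2 values whose median was 6.51 on all arrays and whose correlation with the log2 intensities was 0.995 or more. It had been quantile normalized by the authors, judging by its values, and was used as an alternative. Not given in the sources used here are the test behind the detection p-value, the genome build, the scanner and its software.

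Background correction and quantile normalization were done together by neqc (limma 3.58.1, R 4.3.3). Its offset of 16 makes the differences of dim genes look smaller than they are. A probe was kept if its detection p-value was below 0.05 on 3 or more of the 25 arrays, which 30174 were. The platform annotation gave 1 symbol for 35784 probes, several for 0 and none for 10453. Of the named ones, 28620 were updated through the gene identifier and 2637 through the accession (RefSeq, GRCm38.p6), 4527 kept the annotation's symbol, and 937 symbols changed. Each gene was represented by its kept probe of highest mean.

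All arrays entered a single limma fit with group means and with the chip (1 of 5, read from the sample titles) as a random block through statmod 1.5.0. The correlation within chips was 0.00457, or 0.000745 without array 6 of old cells with competition. Tests after eBayes were two-sided, the Benjamini-Hochberg adjustment covered all 15533 genes, and a gene passed at an adjusted p below 0.05. The 7 comparisons were fitted with array 6 and without it. The procedure was tested on simulated data beforehand. Plots and promoter searches used python 3.11.15, numpy 2.4.6, pandas 2.3.3 and matplotlib 3.10.9.

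Members, role groups and the other lists were chosen with earlier results of these data known, and they are described by counts and medians. By rule, values on single arrays were given for the brightest member of each role and for up to 8 members with the smallest adjusted p that passed in each comparison of TN3 with TN2 or among old and young cells, and up to 4 genes of every other list were named per comparison. Outside this rule, Asf1b was named and array values of Tk1, Dut, Fen1, Mcm3, Mcm5, Gmnn, Gins2 and Cdc6 were given after their values were seen. Alternatives changed the background correction, the scaling, the table, the detection filter (none, or 6 arrays), the probe per gene, the chip block, array weights, the arrays entered and, added later, array 6 left out with 1 TN3 array.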

Additional observations from a re-analysis of the deposited data

Results flagged for a closer look

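Within each of the groups of 6 and 9 samples, the highest or lowest array was set against the rest by Dixon's gap test, for the 43 members and for their mean. Of 132 groups of values tested, 34 held an array that stood apart, where chance flags about 1 in 20. The values of 1 array are not independent, and array 6 of old cells with competition had been singled out before, so its 31 of the 34 describe that array and test nothing. It was the lowest for the mean of the members, at 6.30, and for 30 members.

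Among the initiation and helicase genes these were Orc6 at 5.92, Cdt1 at 6.51, Gmnn at 4.43, Mcm10 at 5.15, Mcm2 at 6.86, Mcm3 at 5.81, Mcm4 at 9.24, Mcm5 at 9.06, Mcm6 at 8.96, Mcm7 at 7.64, Gins1 at 6.29, Gins2 at 4.40 and Gins4 at 7.06. Among the polymerases, clamp and RPA genes they were Pola2 at 4.93, Prim1 at 4.19, Prim2 at 4.90, Pold1 at 6.70, Pold2 at 4.53, Pcna at 4.26, Rfc1 at 8.56, Rfc2 at 8.82, Rfc4 at 6.32, Rfc5 at 5.54, Rpa1 at 9.51 and Rpa2 at 6.15. The rest were Fen1 at 5.99, Lig1 at 5.96, Chaf1b at 6.72, Rrm1 at 9.02 and Tk1 at 5.56.

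In old cells without competition, Orc6 was low on array 7 at 6.66, Gmnn was low on array 6 of that group at 5.49 and Rfc2 was high on array 1 at 10.09.

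With array 6 of old cells with competition left out, the differences of old cells without competition from old cells with competition passed the test for Chaf1b (-0.87), Pcna (-0.95) and Rrm2 (-0.28). This tests whether the 2 kinds of old cells differ from each other.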

How the results depend on the processing

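No paired analysis was possible because the labels give no replicate numbers, other than by chip for TN3 and TN2, where the chip as a fixed block called 206 genes and 0 members. Settings that combine another choice with the omission of array 6 of old cells with competition, and the fits of every probe, were chosen after seeing the data. The cause of the shifts below was not tested. Counts of members that stand below without a count of genes list what a setting gave and are not read as results about the members.

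Leaving out 1 array at a time gave, for genes called, members called and the median member, 331 to 643, 0 to 0 and -0.11 to 0.15 in old cells with competition minus young; 1025 to 1971, 2 to 5 and 0.01 to 0.05 in old cells without competition minus young; 108 to 337, 0 to 3 and -0.13 to 0.21 between the old groups; 127 to 299, 0 to 1 and -0.33 to -0.25 in TN3 minus TN2; and against TN3, 95 to 1191, 1 to 10 and 0.16 to 0.46 in old cells with competition, 125 to 765, 0 to 7 and 0.28 to 0.35 in old cells without, and 153 to 939, 0 to 8 and 0.19 to 0.25 in young cells. The highest counts of genes came without array 6 in all 7 comparisons; the lowest against TN3 came without TN3 array 2.

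Scaling to a common median gave 3937 genes, 7 members and a median of -0.42 in old cells without competition minus young; 3417, 7 and -0.41 between the old groups; 85 genes and -0.54 in TN3 minus TN2; and against TN3, 2970, 19 and 1.02 in old cells with competition, 68 genes and 0.59 in old cells without, and 3122, 21 and 1.00 in young cells. With array 6 also left out it gave 4850 genes and 25 members, 5534 and 37, and 133 genes in the first 3 of these, and 4580 and 38, then 4184 and 31, in old cells with competition and young cells against TN3. With array 6 and 1 TN3 array left out, the 3 comparisons with TN3 called 334 to 966 genes and 6 to 8 members in old cells with competition, 265 to 691 and 4 to 6 in old cells without, and 301 to 850 and 4 to 7 in young cells, always fewest without TN3 array 2. Array weights gave 1077 genes and 1 member in old cells with competition minus young, 2167 and 4 in old cells without minus young, 577 and 5 between the old groups, 82 genes in TN3 minus TN2, and against TN3, 4 members in old cells with competition, 182 genes and 1 member in old cells without, and 4 members in young cells. With the 2 groups' arrays alone there were 2142 genes and 6 members in old cells without competition minus young, 0 genes in TN3 minus TN2 (fitted without the chip, whose correlation could not be estimated), and against TN3, 26 genes and 0 members in old cells with competition, 2 members in old cells without and 4 in young cells.

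Both no background correction and the deposited table gave medians of -0.21 in TN3 minus TN2 and, against TN3, 0.21 in old cells without competition and 0.15 in young cells; without array 6, each called 2 members in old cells with competition minus young. The mean of a gene's kept probes gave -0.25 in TN3 minus TN2 and 1 member against TN3 in old cells without competition and 1 in young cells. Within chips, old cells with competition minus young called 43 genes on chip 2 and 235 on chip 4, old cells without competition minus TN3 called 0 genes on chip 5, and TN3 minus TN2 had medians of -0.26 on chip 3 and -0.33 on chip 5. None of the results changed sign while called, and the detection filters and the chip block left every count within 1.5 times. Dim probes limit Pcna, Orc1, Orc2, Pole, Pole2 and Prim1, which were not detected on all arrays.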

Other observations

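In old cells without competition, 3 of 20 mitosis genes rose against young cells with all arrays (all genes called higher 3.17%): Birc5, which encodes survivin (0.49 ± 0.12, log2 ± SE, limma adjusted p = 0.0129), the spindle motor gene Kif11 (0.52 ± 0.15, adjusted p = 0.0255) and the kinase gene Aurka (0.44 ± 0.14, adjusted p = 0.0471). Against old cells with competition, and with array 6 left out, old cells without competition had 5 genes of the other lists lower and 0 higher (all genes 1.49% and 0.682%). These were Ncapg of condensin (-1.02 ± 0.21, adjusted p = 0.0101), Kif20a (-0.63 ± 0.14, adjusted p = 0.0181), the S phase cyclin gene Ccna2 (-0.77 ± 0.18, adjusted p = 0.0257), Topbp1, which starts replication and checkpoint signalling (-0.66 ± 0.16, adjusted p = 0.0286), and Paics of purine synthesis (-0.64 ± 0.16, adjusted p = 0.0331). With all arrays, Kif20a passed and the other 4 did not, at adjusted p values of 0.154 for Topbp1, 0.189 for Ncapg, 0.313 for Ccna2 and 0.497 for Paics.

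In TN3 against TN2, Myc, a driver of growth genes, stood 1.57 higher in TN3, with an adjusted p of 0.0204 without array 6 and 0.183 with all arrays.

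On array 6 of old cells with competition the other lists were low as well: 24 of 33 other nucleotide synthesis genes lay below the lowest of the group's other 5 arrays (median difference -1.44), as did 11 of 12 checkpoint genes (-1.02), 14 of 21 E2F, RB and G1/S genes (-0.91), 16 of 20 mitosis genes (-0.79) and 20 of 30 other replication factors (-0.74), where 30.2% of all genes did.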
